A study of Homo sapiens with 3 samples.

Results

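The cytosolic ribosomal protein genes were taken by name from the deposited table, as protein-coding rows outside the Y chromosome whose symbol starts with RPL or RPS and a number, or is RPLP0, RPLP1, RPLP2 or RPSA. This gave 84 rows of 29960, with 83 distinct symbols, since RPL26 is listed under both ENSG00000161970 and ENSG00000263809. Of the 84 rows, 32 belong to the small (40S) subunit and 52 to the large (60S) subunit, and they lie on 21 chromosomes. Expression was measured by poly(A)-selected RNA sequencing in 5637, an established human bladder cancer line, grown in RPMI medium with fetal bovine serum. The parental group is genotype WT and the resistant group is gemcitabine resistant, derived from the same line by exposure to this nucleoside analog, and both are labelled untreated at collection. Each library comes from a single-cell clone, so a group stands for a few clones and not for the mixed line. The libraries with a label here are parental 1, resistant 1 and resistant 2, while the group means that the authors deposited cover 3 clones per group by the study's account. The comparison of resistant with parental cells asks here whether the ribosomal protein genes, which are usually set at similar output, differed together between resistant and parental cells, or each with the chromosome region it sits in.

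Cytosolic ribosomal proteins assemble with ribosomal RNA into the subunits that decode mRNA (40S) and form peptide bonds (60S). They are needed in near-equal numbers, their genes are scattered over the genome, and their mRNAs are among the most abundant in growing cells. Most of these mRNAs begin with a terminal oligopyrimidine (TOP) tract, a C at the first base followed by pyrimidines, through which mTOR and LARP1 adjust their translation and stability.

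A TOP tract was shared by most members, although the naming rule did not use it. In RefSeq (GRCh38.p14), 66 of the members had an annotated start, and 47 of them (71.2%) held a start of C followed by at least 4 pyrimidines. The same was found for 5.14% of all genes in that table, for 6.81% of the other genes tested and for 8.96% of the mitochondrial ribosomal protein genes, which serve a separate ribosome. To show it, 30 bases around the start follow for the 6 members with the lowest resistant to parental ratios at an unadjusted p under 0.05, for the RPL22 and RPL22L1 pair, and for RPL9 and RPL10A, which have the highest ratio after RPL22L1 and the largest shortfall against neighbouring genes. Each runs 5′ to 3′ from 10 bases before the start, and capitals mark the unbroken pyrimidine run that opens with the start base where that base is C.
RPS6 (chr9:19380217-19380246, minus strand): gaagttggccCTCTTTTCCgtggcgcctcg
RPS23 (chr5:82278335-82278364, minus strand): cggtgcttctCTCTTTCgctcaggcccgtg
RPL27A (chr11:8682782-8682811, plus strand): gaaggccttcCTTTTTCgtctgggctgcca
RPLP2 (chr11:809957-809986, plus strand): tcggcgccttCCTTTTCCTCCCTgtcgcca
RPS14 (chr5:150449720-150449749, minus strand): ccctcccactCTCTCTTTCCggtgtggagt
RPS3 (chr11:75399508-75399537, plus strand): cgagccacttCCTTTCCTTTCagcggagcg
RPL22 (chr1:6199576-6199605, minus strand): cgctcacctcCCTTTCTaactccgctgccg
RPL22L1 (chr3:170870176-170870205, minus strand): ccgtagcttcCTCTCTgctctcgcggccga
RPL9 (chr4:39458903-39458932, minus strand): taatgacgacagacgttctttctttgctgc
RPL10A (chr6:35468391-35468420, plus strand): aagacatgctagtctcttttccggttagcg
RPS6, RPS23, RPL27A, RPLP2, RPS14 and RPS3 all held the tract, and so did both RPL22 and RPL22L1, whose values lay on opposite sides of parental 1. The annotated starts of RPL9 and RPL10A were not C. Tested members with a TOP start had a median log2 ratio of -0.27 (n = 47) and those without one -0.17 (n = 19), a gap that was not tested. Against parental 1, these medians were -0.23 and 4.2e-05 in resistant 1, but nearly equal in resistant 2, at -0.33 and -0.32.

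In parental 1, 14475531 reads were counted on genes, against 15836788 in resistant 1 and 17461941 in resistant 2. The epithelial genes EPCAM, KRT8, KRT18, KRT19 and CDH1 lay between 179.5 and 4785 CPM (reads per 1000000 reads counted on genes, TMM-scaled) in every library. The basal keratin KRT5 was at 271.7 CPM in parental 1, 9.78 in resistant 1 and 13.8 in resistant 2 (edgeR adjusted p = 0.000598). Its log2 ratio of resistant to parental was -4.52 in edgeR and -2.49 in the authors' group means. Those means cover 3 clones per group by the study's account, so the labelled pair may not stand for all resistant clones. Of the markers of blood, endothelial, liver and islet cells, 5 of 6 were in the table, with 2 listed at 0 in each library and a summed level of 0.550 to 0.979 CPM. PECAM1 was not analysed here.

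Ribosomal protein genes spanned a wide range of levels, given here as the deposited FPKM, which divides by gene length. The listed length was 785 bases for RPL35 and 7686 for RPL37, so the order depends on it as well as on reads. RPLP0, for one, had more reads than RPL8 in each library, with 2003 against 1350 CPM in parental 1. Over the 80 members that passed the filter on low counts, the median of the mean FPKM of the 3 libraries was 280.4, against 5.92 over the 15643 genes tested. Of these, 63 members reached 100 FPKM, 13 were under 50 and 7 under 10. The 40S and 60S members had nearly equal medians of 279.2 and 281.6 FPKM. The top of the order was RPL8, a protein close to the peptidyl transferase centre, with 1263 FPKM in parental 1, 1240 in resistant 1 and 1432 in resistant 2. It was followed by RPL35 (mean 1288 FPKM) and RPL7A (1252), whose values overlapped those of RPL8, and by RPS2 (1050), which lay under RPL8 in every library. RPL32 (735) came next and ranged from 395 to 995 FPKM. The lowest tested member was RPS10, with 2.03, 1.62 and 1.47 FPKM in the same order of libraries, from 20 to 23 reads. Next came RPL36A (mean 2.995 FPKM), RPL17 (3.56), RPS27L (4.32) and RPL22L1 (4.42).

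**Figure D1:**
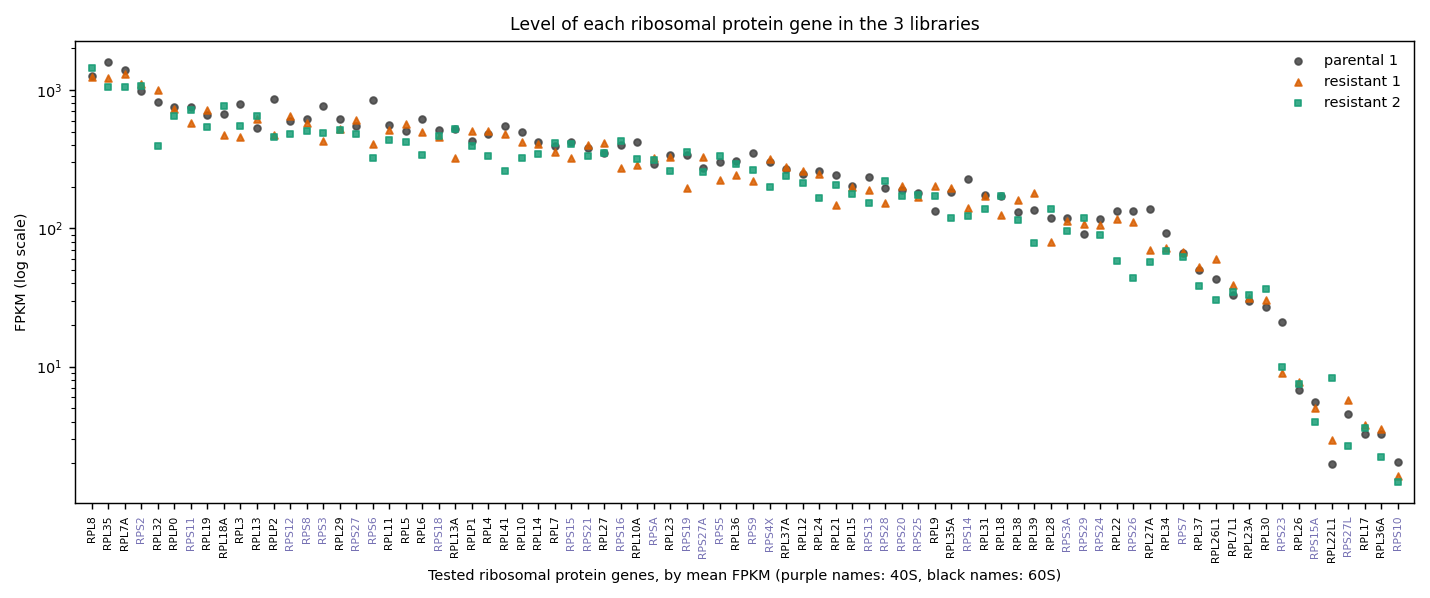
FPKM (log scale) of the 80 tested ribosomal protein genes in parental 1 (circles), resistant 1 (triangles) and resistant 2 (squares), ordered by mean FPKM. Most genes lie above 100 FPKM with the 3 libraries close together, and a short tail of 7 genes lies under 10 FPKM.

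Of the 84 rows, 4 failed the filter, each with at most 1 read in any library, and RPL3L, RPL39L and the second RPL26 row were among them. RPL3L is the muscle form of RPL3 and RPL39L is best known from testis. The core genes RPS10, RPL17, RPL36A and RPL26 were listed far under most other core genes. RPS15A (mean 4.86 FPKM) and RPS23 (13.3) were low as well, with listed lengths of 3828 and 3437 bases. RPS10, RPL17, RPL36A and RPL26 have near-identical processed copies or readthrough neighbours in the human genome. The counting tool and its handling of shared reads are not given in the sources used here, so these low levels are uncertain. The 270 pseudogene rows of ribosomal proteins together held 12319 reads in parental 1, 12578 in resistant 1 and 14567 in resistant 2. Between 0.0794% and 0.0851% of a library's reads fell on them. The part of copies in the low levels was not tested.

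In the labelled libraries, the share of reads on ribosomal protein genes was smaller in resistant 1 and resistant 2 than in parental 1. The 84 members took 4.78% of reads in parental 1 (Wilson 95% interval 4.77 to 4.79), 4.23% in resistant 1 (4.22 to 4.24) and 3.93% in resistant 2 (3.92 to 3.94). Both resistant libraries lay below the parental library, and these intervals cover counting error only, not the spread between clones. In bulk RNA, fewer cells with a transcript and less of it per cell cannot be told apart. For the 68 members with at least 1000 reads in each library, the counting interval of a level was within 4.61% of its value.

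No member passed the test between resistant and parental cells. In edgeR's quasi-likelihood test over all genes, 0 of 80 tested members had an adjusted p under 0.05, against 137 of 15643 genes (0.876%). The smallest adjusted p among members was 0.184, for RPS6. At an unadjusted p under 0.05, 6 members were lower (7.50%), against 4.85% of all genes, and only RPL22L1 was higher (1.25%), against 4.85%. DESeq2 also called 0 members and gave 7 at an unadjusted p under 0.05. The spread in this fit comes from the resistant pair alone, and parental 1 is assumed to vary like it. By permutation, 1 library against 2 cannot reach p < 0.05, and clones may differ more or less than these.

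The direction was nonetheless uneven. The fitted log2 ratio was below 0 for 63 tested members and above 0 for 17, with a median of -0.24, against 0.03 over all genes tested. Both resistant libraries were below parental 1 for 46 members (57.5%), against 34.5% of all genes. Both were above it for 10 members (12.5%), against 35.2% of all genes. In the other 24, resistant 1 alone was above parental 1 in 15 and resistant 2 alone in 9. The 40S and 60S members had medians of -0.24 and -0.22. Median log2 ratios to parental 1 were -0.16 in resistant 1 and -0.29 in resistant 2.

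The lower median did not hold in the authors' group means. There the median log2 ratio of the members, after a pseudocount of 1, was -0.01, against 0.01 over all genes with a mean of at least 10, with 41 members lower and 39 higher. Every ratio from the labelled libraries shares parental 1 as its denominator. From the labelled libraries alone, whether this single clone was high or the resistant clones low cannot be told apart. The group means also take in clones without a label here, and parental 1 was not set against the parental mean.

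**Figure D2:**
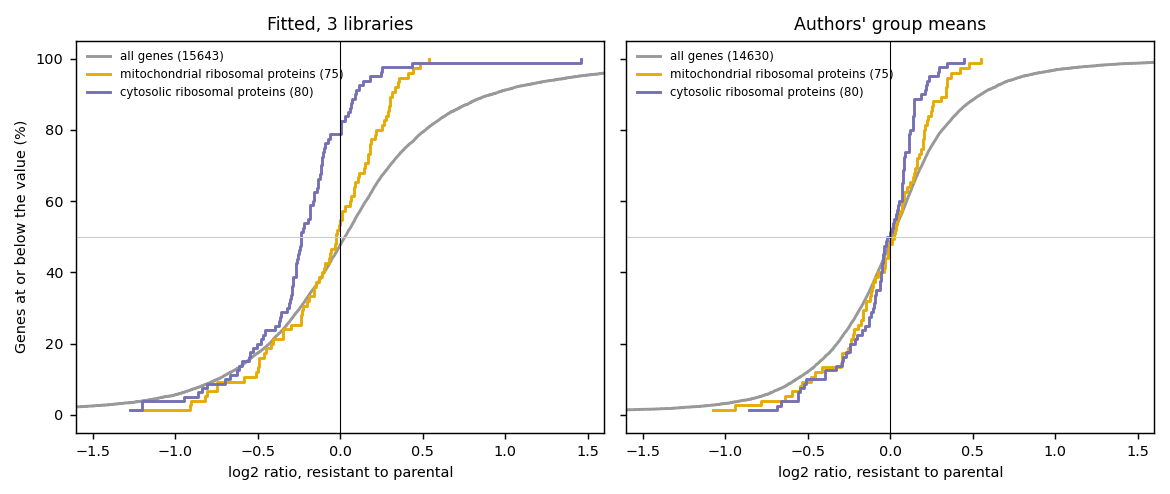
Cumulative share of genes (%) by log2 ratio of resistant to parental, for all genes, mitochondrial ribosomal proteins and cytosolic ribosomal proteins, from the 3 libraries (left) and from the authors' group means (right). The cytosolic curve crosses 50% at -0.24 on the left and at -0.01 on the right, where the 3 curves meet.

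Among the 40S proteins, RPS6, the substrate of the S6 kinases downstream of mTOR, had the lowest ratio. It was at 1212 CPM in parental 1, 549.6 in resistant 1 and 451.1 in resistant 2, or 2.20-fold and 2.68-fold lower. The fitted log2 ratio was -1.28 (SE 0.35, adjusted p = 0.184 in edgeR). RPS23, which lies at the decoding centre, was at 73.9, 29.96 and 34.3 CPM, a log2 ratio of -1.20 (SE 0.34, adjusted p = 0.205). RPS14, whose loss on the long arm of chromosome 5 is known from myelodysplastic syndrome, was at 733.7, 424.8 and 382.7 CPM (log2 ratio -0.86, SE 0.35, adjusted p = 0.446). RPS3, which sits at the mRNA entry and also has a role in DNA repair, was at 1653, 869.1 and 1022 CPM (log2 ratio -0.81, SE 0.34, adjusted p = 0.482). In each of these 4 genes both resistant libraries were under the parental one and closer to each other than to it.

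RPS26, at the mRNA exit, was also among the lowest, but through 1 library. It was at 163.8 CPM in parental 1, 129.98 in resistant 1 and 53.0 in resistant 2, so that its log2 ratio was -0.33 in resistant 1 and -1.62 in resistant 2. At the other end, RPS29 was at 128.1, 142.0 and 162.9 CPM (log2 ratio 0.25, SE 0.36, adjusted p = 0.926). The RPS29 row overlaps that of RN7SL1, the RNA of the signal recognition particle, on the opposite strand, which was at 148.7, 153.6 and 244.4 CPM, and the part of shared reads was not tested. RPSA, the laminin receptor that doubles as a 40S protein, was at 619.9, 643.1 and 646.8 CPM and differed by less than the spread of the fit (log2 ratio 0.06, SE 0.35).

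Among the 60S proteins, RPL27A had the lowest ratio, with 700.1 CPM in parental 1, 329.4 in resistant 1 and 280.5 in resistant 2 (log2 ratio -1.20, SE 0.35, adjusted p = 0.221). RPL3, near the peptidyl transferase centre, was at 1711, 939.2 and 1167 CPM (log2 ratio -0.70, SE 0.35, adjusted p = 0.578). RPL10A, the protein tagged in translating-ribosome affinity purification, was at 464.4, 294.9 and 339.7 CPM (log2 ratio -0.55, SE 0.35, adjusted p = 0.711). In these 3 genes parental 1 was above both resistant libraries, whose own order differed. Among those with higher values, RPL9 was at 292.7, 420.9 and 370.1 CPM (log2 ratio 0.43, SE 0.37, adjusted p = 0.825). RPL13 had a log2 ratio of 0.18, RPL30 one of 0.25, RPL17 one of 0.14, RPL26 one of 0.11 and RPL7L1 one of 0.09, all within 1 SE of 0.

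The stalk of the large subunit, which recruits the elongation factors, is built from RPLP0 with copies of RPLP1 and RPLP2. Its genes were not alike. RPLP2 was at 690.4 CPM in parental 1, 355.4 in resistant 1 and 360.2 in resistant 2 (log2 ratio -0.95, SE 0.34, adjusted p = 0.381). RPLP1, its binding partner, was at 861.9, 951.5 and 778.3 CPM (log2 ratio 0.00, SE 0.36). RPLP0 was at 2003, 1824 and 1701 CPM (log2 ratio -0.18, SE 0.34). RPLP2 thus lay lower in both resistant libraries, while RPLP1 straddled the parental value. RPL5 and RPL11, which with 5S RNA bind MDM2 when ribosome assembly is disturbed, had log2 ratios of -0.11 (SE 0.37) and -0.29 (SE 0.35).

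The 7 members lower by at least 0.5 in both resistant libraries were RPS6, RPS23, RPL27A, RPLP2, RPS14, RPS3 and RPL3. None was higher by at least 0.5 in both. All 7 lay in windows where the other genes were lower too. For each member this was set against the median log2 ratio of the other tested genes in a 10-Mb window centred on it (hg19, at least 20 genes). RPS6 (ENSG00000137154, chr9:19375713-19380252, minus strand) had 31 such neighbours with a median of -1.17, and its difference from them was -0.10. The authors' group means gave RPS6 a log2 ratio of -0.66.

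Chromosome 11 showed the same within 1 chromosome. Its 5 members had a median log2 ratio of -0.81, against -0.31 for its 849 other tested genes. RPL27A (chr11:8703958-8736306) had a window median of -0.71, RPLP2 (chr11:809647-812880) one of -0.68, RPS13 one of -0.43 and RPS3 (chr11:75110530-75133324) one of -0.55. RPS25 (chr11:118886422-118889401), the only one of the 5 in a window with a positive median (0.14), was at 270.4 CPM in parental 1, 238.1 in resistant 1 and 258.0 in resistant 2. Its log2 ratio of -0.12 (SE 0.36) was the nearest to 0 of the 5, and RPS13 and RPS25 are named here after their values were seen. In the authors' group means the 5 ranged from -0.86 (RPL27A) to -0.17 (RPS25). RPL27A overlaps ST5 and RPLP2 overlaps PIDD on the opposite strand, and whether the counting used strand is not given.

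Across the members, the log2 ratio was correlated with that of the neighbours. Pearson's r was 0.68 and Spearman's rho 0.56 over the 79 members with a window, with a slope of 0.90. The sign was shared by 43 of the 79, and the interquartile range of the fitted ratios was 0.28 before and 0.31 after the window median was subtracted. That range went from 0.51 to 0.33 in resistant 1 against parental 1 and from 0.53 to 0.35 in resistant 2. Against parental 1 alone, r was 0.79 in resistant 1 and 0.62 in resistant 2. In the authors' group means it was 0.77 over 78 members. The points share libraries and, for close genes, neighbours, so r describes these libraries and carries no p. A like relation was seen outside these genes. For mitochondrial ribosomal proteins r was 0.75 (n = 73), and for the other genes of at least 100 FPKM it was 0.46 (n = 459). Members also lay under their neighbours, with a median difference of -0.27, and 70 of 79 were below the window median. So were 293 of the 459 other genes of at least 100 FPKM (median difference -0.16) and 41 of the 73 mitochondrial ribosomal proteins (-0.04). In the group means 47 of 78 members were, with a median difference of -0.05.

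**Figure D3:**
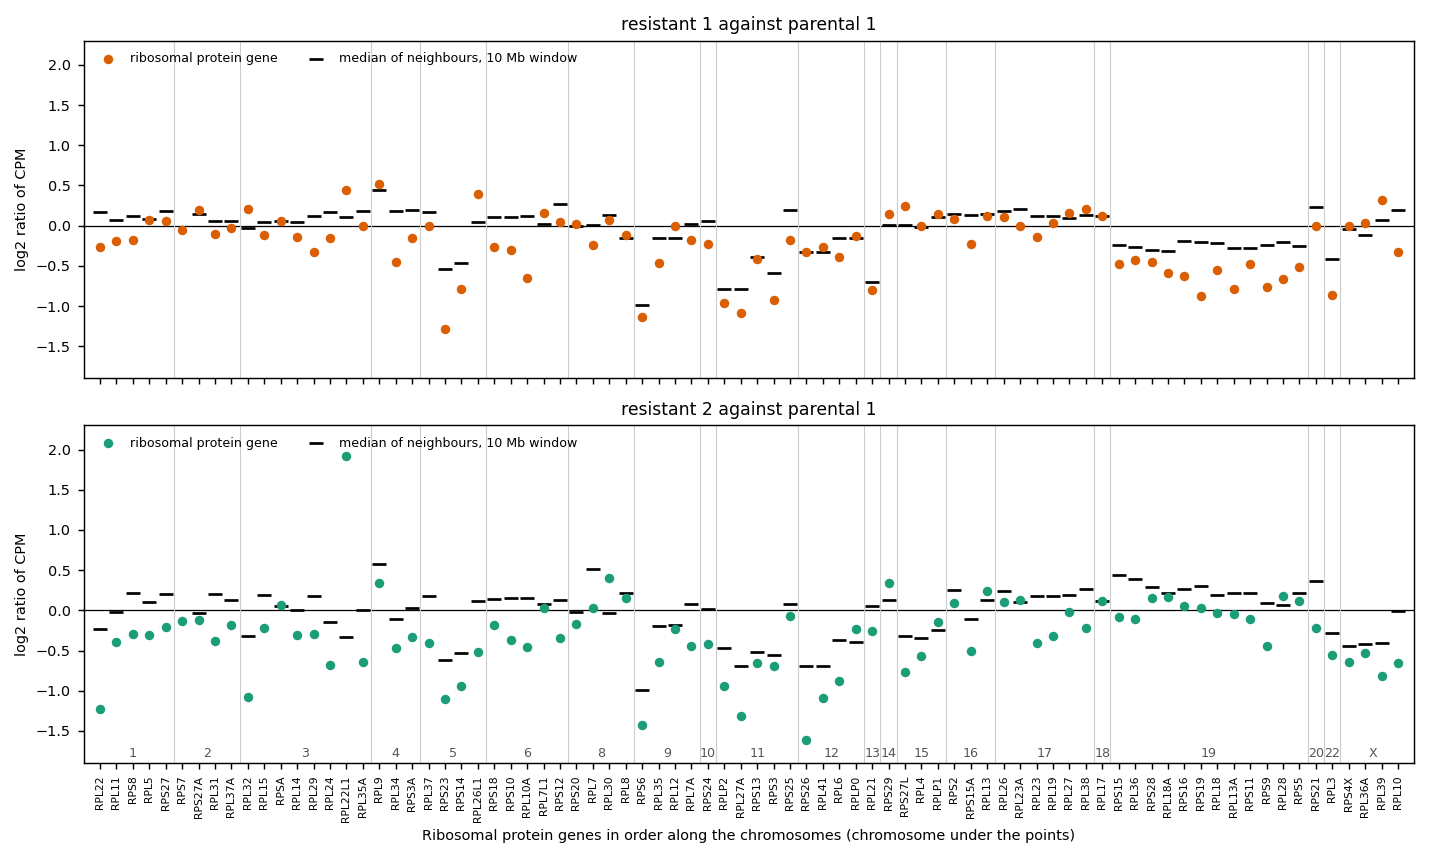
Log2 ratio of CPM of each tested ribosomal protein gene (points) and median of the neighbouring genes in a 10-Mb window (dashes), in resistant 1 (top) and resistant 2 (bottom) against parental 1, in order along the chromosomes. On chromosome 19 all 12 members lie under 0 in resistant 1 and 6 of 12 in resistant 2, and the dashes shift likewise.

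The resistant clones differed from each other on chromosome 19, which carries the most members. All 12 tested members there were below parental 1 in resistant 1, with log2 ratios from -0.88 to -0.43 and a median of -0.57. In resistant 2, 6 were below it, with log2 ratios from -0.44 to 0.18 and a median of -0.0026. The 1136 other tested genes of this chromosome had medians of -0.25 and 0.25. RPS19, the gene most often mutated in Diamond-Blackfan anaemia, is an example picked after its values were seen. It was at 823.1 CPM in parental 1, 447.8 in resistant 1 and 837.8 in resistant 2. The ratio of resistant 1 to resistant 2, which does not use the parental library, was below 0 for all 12, from -0.90 to -0.32, with a median of -0.61 against -0.54 for the other genes of the chromosome. Over all members, this ratio was correlated with that of the neighbours, at r = 0.68 (n = 79) and r = 0.52 without chromosome 19 (n = 67). In mitochondrial ribosomal proteins r was 0.36 (n = 73).

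**Figure D4:**
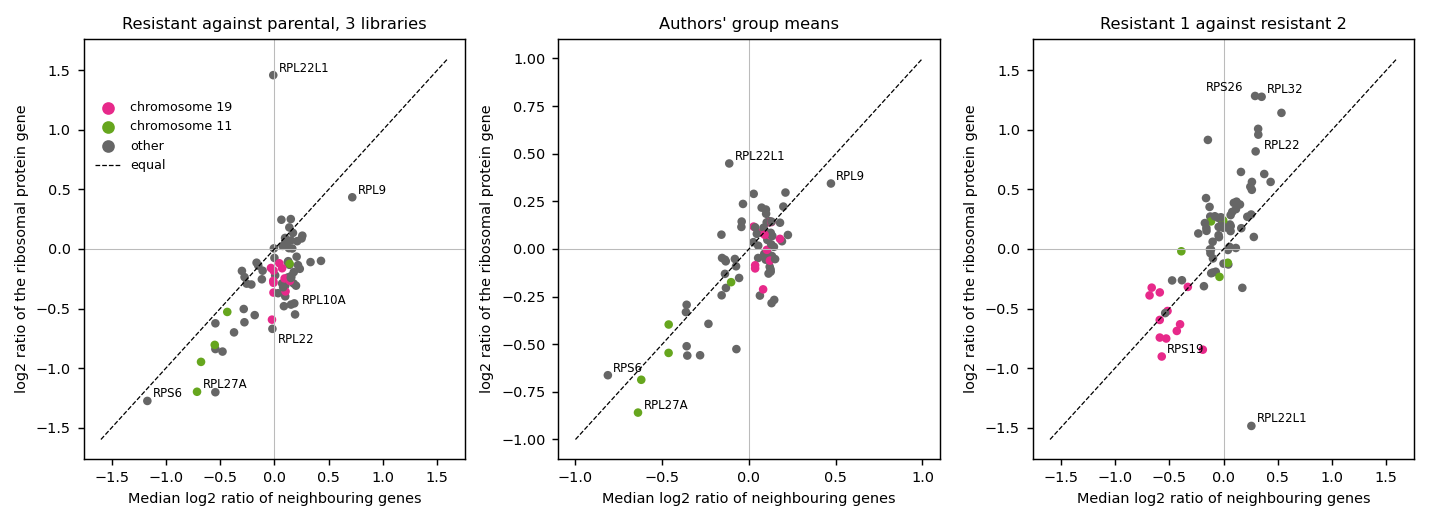
Log2 ratio of each ribosomal protein gene against the median of its neighbours, for resistant against parental in the 3 libraries (left), for the authors' group means (middle) and for resistant 1 against resistant 2 (right). The dashed line marks equal values. RPS6 and RPL27A lie low on both axes and RPL9 high on both, whereas RPL22L1 stands 1.47 above its neighbours on the left.

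Some members left their neighbours. The members furthest below the window median were RPL10A (-0.74), RPS23 (-0.66), RPL22 (-0.65), RPS10 (-0.64) and RPL34 (-0.62). Of these, RPL10A, RPS10 and RPL34 sat in windows with positive medians. Furthest above were RPL22L1 (1.47), RPL30 (0.18), RPLP0 (0.12), RPS29 (0.10) and RPL12 (0.05). Apart from RPL22L1, the excess over the neighbours was thus small. RPL9, on chromosome 4, had the highest window median of the 79 members (0.72) and differed from it by -0.28.

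Between the resistant clones, 5 members differed by at least 1 on the log2 scale, namely RPS26, RPL32, RPL39, RPS27L and RPL22L1. RPL32 was at 1771 CPM in parental 1, 2040 in resistant 1 and 841 in resistant 2. RPL39 was at 267.4, 334.2 and 151.1 CPM. In RPS26, RPL32, RPL39 and RPS27L resistant 2 was the lowest of the 3 libraries, whereas in RPL22L1 it was the highest. With 1 library per clone this spread has no replicate check.

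RPL22 and its paralog RPL22L1 ran in opposite orders over the 3 libraries. RPL22 binds the EBER1 RNA and is a known haploinsufficient tumour suppressor, and its protein is known to hold down RPL22L1 RNA. RPL22 (ENSG00000116251, chr1:6241329-6269449) was at 310.1 CPM in parental 1, 257.5 in resistant 1 and 132.1 in resistant 2. RPL22L1 (ENSG00000163584, chr3:170582664-170588272) was at 4.47 CPM (Wilson 95% interval 3.49 to 5.72, 63 reads), 6.24 (5.14 to 7.57, 102 reads) and 18.4 (16.5 to 20.5, 319 reads). Resistant 2 was thus the lowest in RPL22 and the highest in RPL22L1, and parental 1 the reverse. The fitted log2 ratios were -0.67 (SE 0.43, adjusted p = 0.713) for RPL22 and 1.46 (SE 0.65, adjusted p = 0.511) for RPL22L1, so neither passed the test. In the authors' group means they were -0.24 and 0.45. The parental mean of RPL22L1 was 115.8 counts after size factors, beside 63 raw reads in parental 1. For RPL22 it was 4208, beside 4370 raw reads. Parental 1 may thus be low for its group in RPL22L1, and the order over the 3 libraries may not hold for other parental clones. The fitted window medians were -0.02 for RPL22 and -0.01 for RPL22L1, and in resistant 2 alone they were -0.24 and -0.33.

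**Figure D5:**
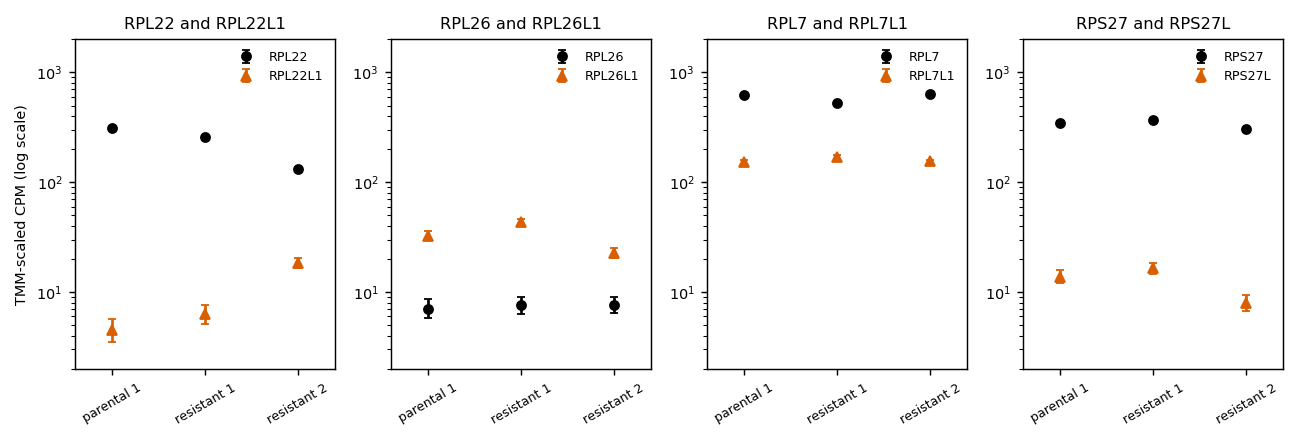
TMM-scaled CPM (log scale) of 4 ribosomal proteins (circles) and their paralogs (triangles) in the 3 libraries, with 95% Wilson intervals for counting error. From parental 1 to resistant 2, RPL22 goes from 310.1 to 132.1 CPM and RPL22L1 from 4.47 to 18.4, and RPL22 stays above RPL22L1 in all 3 libraries.

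The remaining paralogs behaved otherwise. RPL7L1, a nucleolar relative of RPL7 that acts in ribosome assembly, was at 33.1, 39.1 and 34.4 FPKM, with RPL7 at 395.8, 355.9 and 411.6. RPL26L1 exceeded the tested RPL26 row, with 42.8, 59.9 and 30.3 FPKM against 6.83, 7.81 and 7.54, a pair in which shared reads are possible. RPS27L, a known p53 target, was at 4.55, 5.75 and 2.66 FPKM, with RPS27 at 545.1, 603.9 and 483.2. RPL7L1 and RPL26L1 had log2 ratios of 0.09 (SE 0.36) and 0.01 (SE 0.44), and RPS27L one of -0.18 (SE 0.50). RPL26L1 and RPS27L both had their highest value in resistant 1 and their lowest in resistant 2.

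Some ribosomal proteins have names outside the rule. FAU, which makes RPS30 as a fusion with a ubiquitin-like protein, had a log2 ratio of -0.54 (SE 0.36, adjusted p = 0.717 in edgeR). RPL36AL was at -0.40 (SE 0.36, adjusted p = 0.838) and RACK1, a scaffold protein of the 40S subunit listed as GNB2L1, at -0.04 (SE 0.35, adjusted p = 0.994). None of these 3 genes passed the test.

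Mitochondrial ribosomal proteins, a family of like size, served for comparison. Of 77 genes 75 were tested, and 0 had an adjusted p under 0.05. Their median log2 ratio was -0.03, with both resistant libraries below parental 1 for 23 of them (30.7%, against 34.5% of all genes) and above it for 18 (24.0%, against 35.2%). At an unadjusted p under 0.05, 3 were lower (4%, against 4.85% of all genes) and 0 higher. The lower ones were MRPL23, MRPS6 and MRPS11, named after their values were seen. MRPL46 had the lowest log2 ratio (-1.22, SE 0.67) and MRPL52 the highest (0.54, SE 0.36). The 480 other genes of at least 100 FPKM, a set chosen after the values were seen, had a median of -0.09, and 39.8% of them were below parental 1 in both resistant libraries.

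Other genes with TOP mRNAs, mainly elongation and initiation factors, had a lower median than the ribosomal proteins. Of 19 tested, 0 passed the test. Their median log2 ratio was -0.42, with 18 lower and 1 higher, and 14 were below parental 1 in both resistant libraries (73.7%, against 34.5% of all genes). At an unadjusted p under 0.05, 3 were lower (15.8%, against 4.85% of all genes) and 0 higher. The lower ones were EIF3F and, named after their values were seen, HNRNPA1 and BTF3. EIF3F, a subunit of the initiation factor eIF3, had the lowest ratio, with 282.5 CPM in parental 1, 113.8 in resistant 1 and 113.8 in resistant 2 (log2 ratio -1.31, SE 0.34, adjusted p = 0.158). EIF3F lies on chromosome 11, as RPL27A does, HNRNPA1 on chromosome 12 and BTF3 on chromosome 5. Tested genes other than ribosomal proteins had medians of -0.31, -0.36 and -0.30 on these chromosomes. The rest of this list was not set against its neighbours, so the part of location in the lower median was not tested. PABPC1, the poly(A)-binding protein, had the highest (0.16, SE 0.36). In the authors' group means the median of this list was -0.26, with 17 of 19 lower, beside -0.01 and 41 of 80 lower for the ribosomal proteins. The difference between the lists was not tested, and EEF1G was not analysed here.

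Genes that build ribosomes had medians near 0. The 35 assembly factors had a median log2 ratio of 0.03, with 0 past the test, from PES1 (-0.59, SE 0.35) to SBDS (0.57, SE 0.37). The 14 genes of RNA polymerase I and its factors, which transcribe ribosomal RNA, had a median of 0.04. POLR1E, which like RPS6 lies on chromosome 9, was at 51.1 CPM in parental 1, 27.8 in resistant 1 and 20.6 in resistant 2 (log2 ratio -1.08, SE 0.36, adjusted p = 0.325), and TAF1B had the highest ratio (0.55, SE 0.41). In the 17 regulators, 0 passed the test and the median was 0.04. They ran from LARP4 (-0.56, SE 0.37) to EIF4EBP1, the translation repressor 4E-BP1 (0.64, SE 0.36).

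Positions of the members often overlap other genes. In the table's coordinates, 36 members overlapped another row, 9 on the same strand and 34 on the opposite one, so reads of such pairs may be shared where strand was not used in counting.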

How the data were processed

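RNA of single-cell clones of 5637 cells was sequenced by the study, with CASAVA 1.8 and build hg19 named in the submitters' processing notes. The aligner, counting tool, annotation and strand setting are not given in the sources used here. The authors deposited raw read counts per gene, the FPKM of each library, which equalled counts per kilobase of the listed gene length and per 1000000 reads counted on genes, and a group signal, their mean of counts divided by size factors. The table also holds their fold changes and p-values, which were not used, nor were 6 per-library columns without a sample label.

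Groups followed the sample titles (1 parental, 2 resistant). Counts were tested with edgeR 4.0.16 (R 4.3.3) by the quasi-likelihood F-test after filterByExpr and TMM scaling, with Benjamini-Hochberg adjustment over 15643 genes and 1 residual degree of freedom. The common biological coefficient of variation was 0.281. The SE of a log2 ratio is its size divided by the square root of F. Ratios of single libraries used a pseudocount of 0.5 CPM, and ratios of group means one of 1 with a mean of at least 10. In simulated data for this comparison (15195 genes), 5 of 100 genes changed 2-fold and 47 of 100 changed 4-fold were recovered, with 3 false calls. Total counts of 14475531 to 17461941 reads put the floor of 3 counts at 0.173 to 0.213 CPM. DESeq2 1.42.0, other scalings, filters, window widths and lists were tried as alternatives. Start sequences were from RefSeq (GRCh38.p14), matched by symbol, and 17 members had no entry. Positions are those of the table. Of 83 members found in GENCODE 29 (GRCh38), 2 had the same start.

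Members and lists were chosen with earlier results of these data known. Named genes were the 8 highest and 8 lowest members by log2 ratio, paralogs with their partners, the 5 highest and lowest by FPKM, the 5 furthest above and below their window, RPLP0, RPLP1, RPLP2, RPL5, RPL11, RPS6, RPSA and FAU, and the extremes of each other list. Some genes that this rule covers are not reported here. Each library is a different single-cell clone, independently derived by the study's account, so clone and technical spread cannot be told apart. Summaries were made in Python 3.11.15 with pandas 2.3.3, scipy 1.17.1 and numpy 2.4.6, and plots in matplotlib 3.10.9.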

Additional observations from a re-analysis of the deposited data

How the results depend on the processing

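The lower median of the members depended on the values used, since the authors' group means gave -0.013 in place of -0.24. Leaving out either resistant library gave -0.29 to -0.16, and parental 1 could not be left out. Scaling to library totals gave -0.18, with a median of 0.09 over all genes. Without the filter on low counts, 1 member in place of 0 was called, RPS6 (adjusted p = 0.0349), and DESeq2 gave RPS6 an adjusted p of 0.0636. All genes called numbered 137 in the main test, 235 with RLE size factors, 230 with library totals only, 534 without the filter and 248 with DESeq2. The correlation with neighbours was 0.49 over whole chromosomes in place of 0.68, and 0.62 to 0.79 when either resistant library was left out. The causes were not tested. For the 41 members named, 201 of 205 recomputed log2 ratios kept their direction. The exceptions lay at about 0, with RPLP1 at -1.32e-05 under RLE size factors, -0.0054 under TMM without the members and -0.0018 without the filter, and RPL26L1 at -0.0030 under TMM without the members. Few reads limited RPS10, RPL17, RPL26 and RPL22L1. No paired analysis was possible because the groups share only replicate number 1 and the numbers name clones without a stated link.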
